A study of Mus musculus with 14 samples.

Results

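The genes described here are 54 listed macrophage and myeloid genes: markers, receptors, enzymes and signalling proteins that are used most by macrophages, monocytes and other cells of the myeloid line. A gene of the list was tested when its row of the non-normalised signal table was detected, with a detection p under 0.05, on 3 or more arrays. This left 40 genes of the 54, out of 9408 rows tested among 18138 in all. Another 12 listed names had a row that did not pass this filter, and Mpeg1 and Lyn were not analysed here because no row carried their name. Of the 12, LYZS is an older name of Lyz2, which was tested by another row, and it was not dim by signal.

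Macrophages live in the normal heart as resident cells, and blood monocytes that enter injured or stressed myocardium add to them. They depend on the growth factor receptor Csf1r and the transcription factor Spi1 (PU.1), take up debris through scavenger and lectin receptors, digest it in lysosomes with cathepsins and lysozyme, and make the complement component C1q. Angiotensin II, a hormone that raises blood pressure and acts on heart and vessel directly, is a classical means of bringing inflammatory cells into the rodent heart.

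RNA came from left ventricles of male mice of the C57Bl/6N and C57Bl/6J substrains, measured on 14 single-colour Illumina arrays. The groups were C57Bl/6N with angiotensin II (Ang II) for 48 h (4 arrays), C57Bl/6N sham-operated (3 arrays), C57Bl/6J with Ang II for 48 h (4 arrays) and C57Bl/6J sham-operated (3 arrays). Ang II was given by mini-pumps under the skin, at 500 ng/kg, per minute in the series title and per hour in its design text. No mutation, transgene or age is named for any group. Whether each array stands for its own mouse is not in the labels, and the p-values therefore cover only the spread seen among these arrays, some of which may be technical. They give no chip, batch or date, so no batch could be examined. Arrays are numbered within their group in accession order, which pairs nothing across groups.

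The arrays detected 46.4% to 49.3% of rows each, and arrays of 1 group correlated at 0.976 to 0.995 over the tested rows. A row is called above background on an array when its signal reaches the lowest signal detected there, which is a separate measure from the detection p, and all 9 cardiomyocyte marker rows were above background on all arrays. Values below are log2 signals after background correction and quantile normalisation, and a change is a difference of mean log2 values with its standard error from 1 limma fit over all 14 arrays. A gene is said to have risen or fallen only where its p, adjusted by the method of Benjamini and Hochberg across the 9408 rows, was under 0.05. Of the 40 genes, 29 were detected on every array. Cd180 passed the filter only through its C57Bl/6N Ang II arrays, so it had to differ.

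Promoter sequence is shown for a few members that rose in C57Bl/6N and whose windows hold at least 1 of the 2 motifs below. Spi1 binds purine-rich DNA with a GGAA core and is a general regulator of myeloid genes. RefSeq promoter windows of GRCm38.p6, from 250 bases before to 50 bases after the annotated start, were found for 28 of the 40 tested genes. The motif GAGGAA, which reads TTCCTC on the other strand, stood in at least 1 window of 15 of those 28 genes (53.6%), against 31.3% of 27025 genes in the table. The longer motif AGGAAGT, which reads ACTTCCT on the other strand, stood in 10 of the 28 genes (35.7%), against 10.7% of the genes in the table. The genes in the table were not limited to those tested here. The 2 motifs share letters, so they can overlap, as they do in Vav1 and Ctss. The sequences below run 5′ to 3′ on the strand of the gene, with capitals marking the motif letters. Vav1 lies at chr17:57278850-57279149 (plus strand), Ctss at chr3:95526536-95526835 (plus), Trem2 at chr17:48346151-48346450 (plus), Lyz1 at chr10:117292819-117293118 (minus) and Lyz2 at chr10:117282223-117282522 (minus).
Vav1: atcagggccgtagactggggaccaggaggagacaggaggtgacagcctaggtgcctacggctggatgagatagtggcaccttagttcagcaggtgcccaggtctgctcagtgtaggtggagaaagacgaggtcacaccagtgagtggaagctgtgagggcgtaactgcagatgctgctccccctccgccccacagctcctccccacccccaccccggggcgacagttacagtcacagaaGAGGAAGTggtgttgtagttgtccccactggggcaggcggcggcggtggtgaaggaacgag
Ctss: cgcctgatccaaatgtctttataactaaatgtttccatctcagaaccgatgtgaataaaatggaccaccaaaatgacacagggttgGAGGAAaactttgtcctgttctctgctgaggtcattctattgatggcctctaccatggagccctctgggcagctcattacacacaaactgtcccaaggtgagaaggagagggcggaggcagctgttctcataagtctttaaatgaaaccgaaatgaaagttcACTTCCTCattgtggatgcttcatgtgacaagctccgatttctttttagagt
Trem2: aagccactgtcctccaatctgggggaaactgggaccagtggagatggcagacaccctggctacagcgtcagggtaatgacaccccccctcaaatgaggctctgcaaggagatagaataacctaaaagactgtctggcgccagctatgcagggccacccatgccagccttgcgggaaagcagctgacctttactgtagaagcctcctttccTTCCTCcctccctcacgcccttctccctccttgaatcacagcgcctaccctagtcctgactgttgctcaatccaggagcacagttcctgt
Lyz1: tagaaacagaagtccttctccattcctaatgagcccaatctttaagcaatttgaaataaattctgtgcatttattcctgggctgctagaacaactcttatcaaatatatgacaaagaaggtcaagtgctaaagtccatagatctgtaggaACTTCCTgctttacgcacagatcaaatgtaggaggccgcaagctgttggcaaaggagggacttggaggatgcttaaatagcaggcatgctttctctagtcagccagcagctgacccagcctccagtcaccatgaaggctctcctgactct
Lyz2: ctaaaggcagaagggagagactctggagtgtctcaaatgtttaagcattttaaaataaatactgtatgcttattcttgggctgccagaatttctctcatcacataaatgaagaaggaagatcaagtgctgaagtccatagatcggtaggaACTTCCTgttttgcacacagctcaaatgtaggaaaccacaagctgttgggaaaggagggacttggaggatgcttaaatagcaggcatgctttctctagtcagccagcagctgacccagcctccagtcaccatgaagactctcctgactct
In Vav1 the joined motif GAGGAAGT stands just before the start, and in Ctss its reverse complement lies across the start. The windows of the neighbouring lysozyme genes Lyz1 and Lyz2 hold ACTTCCT at the same place and share 201 of their 300 bases (67.0%) without gaps. The windows of Lgals3, Lcp1, Ly86, Coro1a, Ctsz, Cyba, Irf8 and Cd180, which also rose in C57Bl/6N, hold neither motif. Those of Ctsc and Clec7a, which did not pass the threshold there, hold GAGGAA, and that of Ctsc also holds AGGAAGT. A match describes the letters of a window and was not tested as a binding site.

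The first question was which of these genes answered to Ang II in C57Bl/6N ventricles. Of the 40 tested genes 33 rose and 0 fell, and 15 of the 33 rose at least 2-fold. Without Cd180, which had to differ, 32 of 39 rose; counts without it were added after the data were seen. Among all tested rows 9.45% rose and 7.92% fell. The median change over the 40 genes, Cd180 included, was 0.87 on the log2 scale, with a range of 0.00 to 2.5, while the median over all 9408 rows was -0.04. In whole ventricle, more cells of a type and more RNA per cell cannot be told apart.

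In C57Bl/6J ventricles the same infusion gave a far smaller set of changes. Only Ctsk, a collagen-degrading cathepsin, rose among the 40 genes and 0 fell, where 1.02% of all rows rose and 0.383% fell. The median change was 0.08, with a range of -0.34 to 0.86, and the median 95% interval of a single gene ran from -0.38 to 0.54. By limma 4 of the 40 genes had an unadjusted p under 0.05, against 15.3% of all rows. The 2 substrains thus gave 33 and 1 called genes, but counts of calls do not test a difference, which is tested separately further on.

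**Figure D1:**
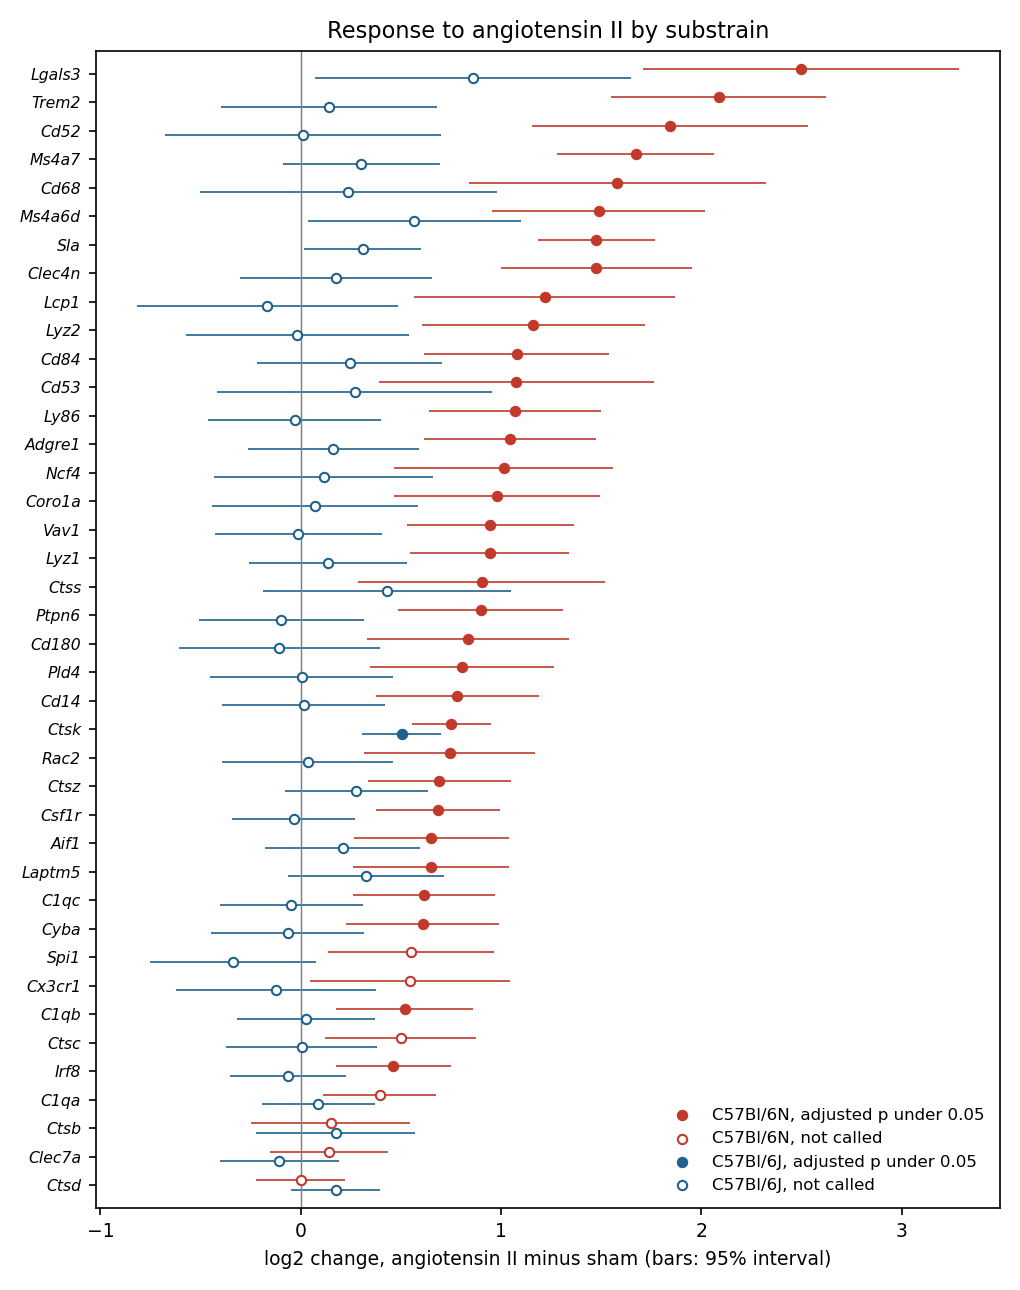
Log2 change under Ang II for the 40 tested macrophage and myeloid genes, with 95% intervals from the limma fit, ordered by the C57Bl/6N change; filled points passed an adjusted p under 0.05. The C57Bl/6N changes run from 0.00 to 2.5 with 33 past the threshold, and the C57Bl/6J changes from -0.34 to 0.86 with 1 past it. Fitted changes of Trem2, Cd180 and Clec7a rest on C57Bl/6N sham arrays that were not above background.

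The receptors for glycans, lipids and microbial products held the members with the largest fitted changes, Lgals3 and Trem2. In this group of 8 listed genes 7 were tested and 6 rose in C57Bl/6N (5 of 6 without Cd180), with a median change of 1.07, against 0 in C57Bl/6J with a median of 0.01. Both medians include Cd180. Lgals3 (galectin-3; row LGALS3), a glycan-binding protein that macrophages secrete, had log2 signals of 11.19, 10.30, 11.12 and 9.22 in C57Bl/6N Ang II ventricles, against 7.57, 8.0 and 8.31 in C57Bl/6N sham ventricles. In C57Bl/6J its signals were 8.86, 8.37, 8.56 and 8.13 with Ang II against 8.02, 7.33 and 7.51 in sham. All 4 C57Bl/6N Ang II arrays exceeded all 3 of their sham arrays, and the change was 2.5 ± 0.37 (5.65-fold, limma adjusted p = 0.000647). In C57Bl/6J the groups did not overlap either, but the change of 0.86 ± 0.37 did not pass the threshold (adjusted p = 0.279).

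Trem2 (row TREM2), a lipid-sensing receptor of macrophages and microglia, reached 7.94, 7.56, 7.76 and 6.59 in C57Bl/6N Ang II ventricles, against 5.32, 5.25 and 5.56 in C57Bl/6N sham ventricles. None of the 3 C57Bl/6N sham arrays was above background, so only a bound is given: at least 3.76-fold higher (adjusted p = 0.000166) under the background correction used here. In C57Bl/6J all arrays were above background, with 6.18, 5.78, 6.54 and 6.04 with Ang II against 5.91, 5.92 and 6.16 in sham, and there the groups overlapped (change 0.14 ± 0.25, adjusted p = 0.836). Cd180, a Toll-like receptor homologue, was above background on 3 of the 4 C57Bl/6N Ang II arrays and on no other array, at least 1.13-fold over C57Bl/6N sham. Because of how it passed the filter, no p is given for it. Its partner Ly86 (MD-1) rose by 1.07 (adjusted p = 0.00317). Clec4n (dectin-2), a receptor for fungal mannans, rose by 1.48, and Cd14, a co-receptor for lipopolysaccharide, by 0.78 (adjusted p = 0.000741 and 0.0118). Clec7a (dectin-1) was above background on 1 array, so its change has no size, and it did not pass the threshold (adjusted p = 0.537). The scavenger receptor Msr1 was detected on no array.

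**Figure D2:**
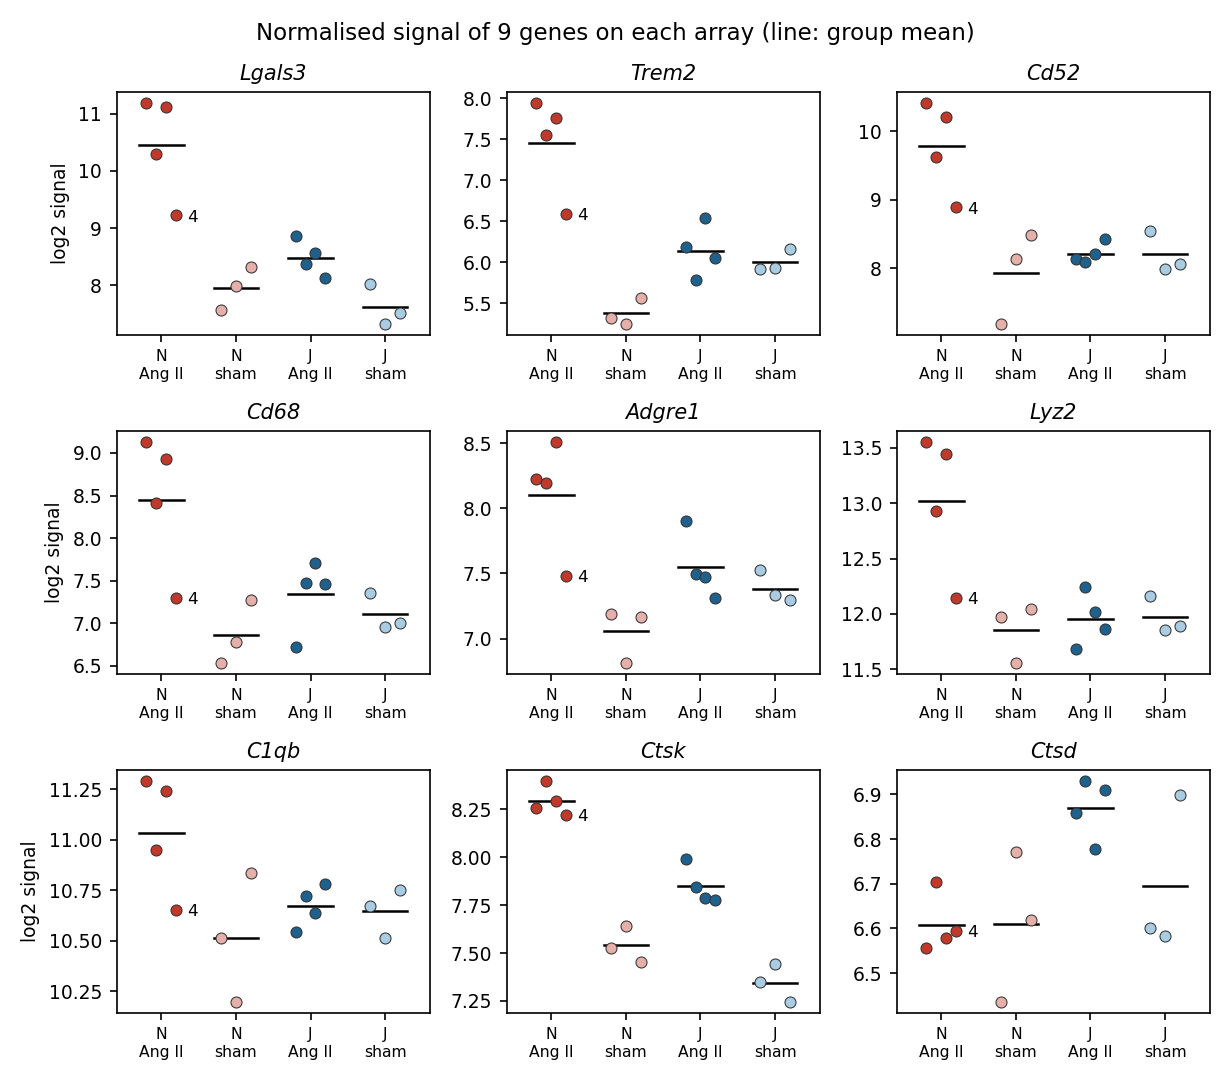
Log2 normalised signal of 9 of the genes on each array, with C57Bl/6N Ang II, C57Bl/6N sham, C57Bl/6J Ang II and C57Bl/6J sham from left to right; points are arrays, lines are group means, and 4 marks array 4 of C57Bl/6N Ang II. For Lgals3 the C57Bl/6N Ang II arrays lie between 9.22 and 11.19, above their sham arrays, and array 4 of that group is the lowest of its 4.

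The MS4A family comprises tetraspanning membrane proteins, and Ms4a7 and Ms4a6d are used as macrophage markers. Both tested members rose in C57Bl/6N. Ms4a7 measured 7.61, 7.39, 7.67 and 6.75 in C57Bl/6N Ang II ventricles, against 5.68, 5.83 and 5.55 in C57Bl/6N sham ventricles. Ms4a6d measured 9.39, 8.66, 9.43 and 8.07 in C57Bl/6N Ang II ventricles, against 7.48, 7.10 and 7.61 in C57Bl/6N sham ventricles. Neither overlapped between Ang II and sham, and the changes were 1.67 ± 0.18 and 1.49 ± 0.25 (adjusted p = 9.05e-05 and 0.0015). In C57Bl/6J, Ms4a7 gave 6.37, 6.31, 6.27 and 6.03 with Ang II against 6.17, 5.92 and 5.73 in sham. Ms4a6d gave 7.81, 7.75, 7.65 and 7.91 with Ang II against 7.21, 7.2 and 7.23 in sham. The C57Bl/6J Ang II arrays of Ms4a6d all lay above their sham arrays, but its change of 0.57 ± 0.25 missed the threshold (adjusted p = 0.291), as did that of Ms4a7, 0.30 ± 0.18 (adjusted p = 0.458). In a fit on the C57Bl/6J arrays alone Ms4a6d passed (adjusted p = 0.0361). Of the C57Bl/6N sham arrays, 2 of 3 were above background for Ms4a7. All C57Bl/6J arrays were above background for Ms4a7 by signal. By detection p it was detected on only 1 of 4 C57Bl/6J Ang II arrays and 1 of 3 C57Bl/6J sham arrays.

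Among leukocyte membrane proteins all 4 tested of 6 listed rose in C57Bl/6N (median change 1.08) and 0 did so in C57Bl/6J (median 0.26). Cd52, a small glycoprotein anchored in the membrane of lymphocytes and myeloid cells, had 10.41, 9.63, 10.20 and 8.89 in C57Bl/6N Ang II ventricles, against 7.19, 8.13 and 8.48 in C57Bl/6N sham ventricles. Cd84, a self-binding receptor of the SLAM family, had 7.88, 7.42, 7.76 and 6.81 in C57Bl/6N Ang II ventricles, against 6.56, 5.99 and 6.63 in C57Bl/6N sham ventricles. Both were non-overlapping in C57Bl/6N, with changes of 1.84 ± 0.32 and 1.08 ± 0.22 (adjusted p = 0.00199 and 0.00432). The C57Bl/6J arrays read 8.14, 8.09, 8.21 and 8.43 with Ang II against 8.55, 7.99 and 8.07 in sham for Cd52. For Cd84 they read 6.51, 6.63, 6.76 and 6.8 with Ang II against 6.27, 6.64 and 6.38 in sham. In both genes the C57Bl/6J groups overlapped. The tetraspanin Cd53 rose by 1.08 (adjusted p = 0.0324) and the lysosomal membrane protein Laptm5 by 0.65 (adjusted p = 0.0236). Ptprc (CD45) and Cd48 were detected on no array, which for Ptprc, a protein of all leukocytes, leaves the defining leukocyte marker unmeasured here.

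Signalling proteins of blood cells rose in all 3 tested of 5 listed, by a median of 0.95 in C57Bl/6N against -0.01 in C57Bl/6J. The adaptor Sla, which dampens antigen and growth factor receptor signals, measured 7.30, 6.99, 7.12 and 6.69 in C57Bl/6N Ang II ventricles, against 5.73, 5.56 and 5.35 in C57Bl/6N sham ventricles. In C57Bl/6J it measured 5.75, 5.58, 5.81 and 5.83 with Ang II against 5.58, 5.34 and 5.38 in sham. The 4 C57Bl/6N Ang II arrays stood well clear of the other 10, and Sla had the lowest adjusted p of the members, 4.10e-05, at a change of 1.48 ± 0.14. Only 1 of 3 sham arrays was above background in each substrain, so the size of that change is uncertain. Vav1, an exchange factor for small GTPases, read 7.65, 6.95, 7.35 and 6.57 in C57Bl/6N Ang II ventricles, against 6.15, 5.97 and 6.43 in C57Bl/6N sham ventricles. Its C57Bl/6J arrays read 6.31, 6.10, 6.38 and 6.19 with Ang II against 6.23, 6.17 and 6.37 in sham. The gene rose by 0.95 ± 0.20 in C57Bl/6N (adjusted p = 0.00501), without overlap, while its C57Bl/6J groups overlapped. Ptpn6 (SHP-1), a phosphatase that restrains myeloid receptors, rose by 0.90 (adjusted p = 0.00609). The Src-family kinase Fgr was detected on no array.

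The lysosomal group was the largest, with 10 tested of 13 listed: 7 rose in C57Bl/6N with a median of 0.78, and 1 rose in C57Bl/6J with a median of 0.17. Cd68 (row CD68), a heavily glycosylated membrane protein of macrophage lysosomes, had 9.13, 8.42, 8.93 and 7.30 in C57Bl/6N Ang II ventricles, against 6.54, 6.78 and 7.27 in C57Bl/6N sham ventricles. In C57Bl/6J it had 6.73, 7.48, 7.71 and 7.46 with Ang II against 7.36, 6.95 and 7.01 in sham. Array 4 of the C57Bl/6N Ang II group, at 7.30, was barely above the highest sham array at 7.27, and the change was 1.58 ± 0.35 (adjusted p = 0.00694). The row of Lyz2, the macrophage lysozyme, gave 13.55, 12.93, 13.44 and 12.14 in C57Bl/6N Ang II ventricles, against 11.97, 11.56 and 12.04 in C57Bl/6N sham ventricles. Its C57Bl/6J signals were 11.68, 12.25, 12.02 and 11.87 with Ang II against 12.17, 11.86 and 11.89 in sham. Lyz2 rose by 1.16 ± 0.26 in C57Bl/6N (adjusted p = 0.00765), and the row named LYZ, which is Lyz1, by 0.94 (adjusted p = 0.00379). The lysozyme transcripts are near-identical, so these rows may share signal and cannot be assigned with certainty to 1 gene.

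Ctsk differed from the members above in that its 4 C57Bl/6N Ang II arrays were close together. They read 8.26, 8.40, 8.29 and 8.22 in C57Bl/6N Ang II ventricles, against 7.53, 7.64 and 7.45 in C57Bl/6N sham ventricles. In C57Bl/6J the signals were 7.99, 7.84, 7.79 and 7.77 with Ang II against 7.35, 7.44 and 7.25 in sham. Ang II and sham did not overlap in either substrain, and the changes were 0.75 ± 0.09 in C57Bl/6N and 0.50 ± 0.09 in C57Bl/6J (adjusted p = 0.000185 and 0.0149). The C57Bl/6J call was lost with median scaling, in a fit on the C57Bl/6J arrays alone and without any 1 of the 3 C57Bl/6J sham arrays. The fit on the C57Bl/6J arrays alone called Ms4a6d in its place. Ctsk is also made by fibroblasts, and 3 of 7 tested fibroblast markers, Lum, Col1a1 and Col1a2, rose in C57Bl/6N, where 9.45% of all rows rose. The part of other cell types in Ctsk was not tested.

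Ctss, an elastin-degrading cathepsin of antigen-presenting cells, rose by 0.90 in C57Bl/6N (adjusted p = 0.0441), Ctsz, a carboxypeptidase, by 0.69 (adjusted p = 0.0114), and the endolysosomal exonuclease Pld4 by 0.81 (adjusted p = 0.0183). Ctsc, which activates serine proteases of granulocytes, had a change of 0.50 (adjusted p = 0.0655), and the broadly expressed Ctsb one of 0.15 (adjusted p = 0.633). The aspartic protease Ctsd was the one member with a negative estimate in C57Bl/6N, at 6.56, 6.70, 6.58 and 6.59 in C57Bl/6N Ang II ventricles, against 6.44, 6.77 and 6.62 in C57Bl/6N sham ventricles. In C57Bl/6J it read 6.86, 6.93, 6.78 and 6.91 with Ang II against 6.60, 6.58 and 6.90 in sham. These groups overlapped in both substrains and the C57Bl/6N change was 0.00 ± 0.10 (adjusted p = 0.995). Of 17 general lysosome genes that are no members, such as Lamp1 and Hexa, 4 rose and 1 fell in C57Bl/6N, with a median of 0.13. Among all tested rows 9.45% rose and 7.92% fell there.

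Of the lineage-defining genes, 5 were tested of 6 listed, and 3 rose in C57Bl/6N with a median of 0.55, and 0 in C57Bl/6J with a median of -0.06. Adgre1 (F4/80; row EMR1), an adhesion receptor of mature macrophages, measured 8.23, 8.19, 8.51 and 7.48 in C57Bl/6N Ang II ventricles, against 7.19, 6.81 and 7.17 in C57Bl/6N sham ventricles. Its C57Bl/6J signals were 7.90, 7.5, 7.47 and 7.31 with Ang II against 7.52, 7.33 and 7.30 in sham. Csf1r, the receptor for macrophage colony-stimulating factor, measured 8.48, 8.40, 8.54 and 7.97 in C57Bl/6N Ang II ventricles, against 7.64, 7.45 and 7.90 in C57Bl/6N sham ventricles. Neither gene overlapped in C57Bl/6N, and both rose, by 1.05 ± 0.20 and 0.68 ± 0.14 (adjusted p = 0.0034 and 0.0057). In C57Bl/6J, Csf1r read 7.98, 8.08, 8.06 and 7.98 with Ang II against 8.30, 7.96 and 7.92 in sham, with sham arrays that all lay above the C57Bl/6N sham arrays. Irf8, a transcription factor of monocytes and dendritic cells, rose by 0.46 (adjusted p = 0.0293). The fractalkine receptor Cx3cr1 had 0.55 and Spi1 (row SFPI1) 0.55, and neither passed (adjusted p = 0.124 and 0.0655). The monocyte chemokine receptor Ccr2 was detected on no array.

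The actin-binding proteins all rose in C57Bl/6N, 3 of 3, with a median of 0.98 against 0.07 in C57Bl/6J. Lcp1 (L-plastin), which bundles actin in leukocytes, gave 9.43, 8.89, 9.33 and 7.98 in C57Bl/6N Ang II ventricles, against 7.67, 7.16 and 8.23 in C57Bl/6N sham ventricles. Coro1a, which regulates actin turnover in leukocytes, gave 9.77, 9.02, 9.51 and 8.54 in C57Bl/6N Ang II ventricles, against 7.87, 8.10 and 8.72 in C57Bl/6N sham ventricles. In both, array 4 lay below the highest sham array, and the changes were 1.22 ± 0.31 and 0.98 ± 0.24 (adjusted p = 0.0133 and 0.0122). Their C57Bl/6J arrays overlapped, at 7.11, 7.71, 7.86 and 7.73 with Ang II against 7.70, 7.85 and 7.75 in sham for Lcp1. For Coro1a they were 8.05, 8.06, 8.22 and 8.27 with Ang II against 8.17, 8.03 and 8.03 in sham. Aif1 (Iba1) rose by 0.65 (adjusted p = 0.0232). It was above background by signal on all 14 arrays. By detection p it was detected on only 2 of 4 C57Bl/6N Ang II arrays and on all 3 C57Bl/6N sham arrays.

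The NADPH oxidase of phagocytes makes superoxide. Of 5 listed genes 3 were tested and all 3 rose in C57Bl/6N, with a median of 0.74 against 0.03 in C57Bl/6J. The cytosolic subunit Ncf4 read 7.87, 7.13, 7.74 and 6.62 in C57Bl/6N Ang II ventricles, against 6.58, 5.99 and 6.41 in C57Bl/6N sham ventricles. Rac2, the GTPase that switches the complex on, read 7.0, 6.33, 6.96 and 6.09 in C57Bl/6N Ang II ventricles, against 5.83, 5.58 and 6.16 in C57Bl/6N sham ventricles. The Ncf4 groups did not overlap, whereas array 4 for Rac2 fell among the sham arrays, and the changes were 1.01 ± 0.26 and 0.74 ± 0.20 (adjusted p = 0.0141 and 0.0195). C57Bl/6J arrays gave 6.16, 6.09, 6.46 and 6.78 with Ang II against 6.09, 6.32 and 6.36 in sham for Ncf4. For Rac2 they gave 5.69, 5.64, 5.98 and 5.86 with Ang II against 5.66, 5.82 and 5.79 in sham. Both genes overlapped between Ang II and sham there. The membrane subunit Cyba, which other cells also use, rose by 0.61 (adjusted p = 0.03), while its partner Cybb and the organiser Ncf1 were detected on no array. The catalytic core of the phagocyte enzyme was therefore not measured.

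The C1q chains, made in large part by macrophages, include C1qb and C1qc, which rose in C57Bl/6N. C1qc read 11.21, 11.22, 11.21 and 10.66 in C57Bl/6N Ang II ventricles, against 10.29, 10.37 and 10.71 in C57Bl/6N sham ventricles, and rose by 0.62 ± 0.17 (adjusted p = 0.0204). C1qb read 11.29, 10.95, 11.24 and 10.65 in C57Bl/6N Ang II ventricles, against 10.51, 10.20 and 10.83 in C57Bl/6N sham ventricles, and rose by 0.52 ± 0.16 (adjusted p = 0.0374). In both, array 4 lay within the sham range. The change of C1qa was 0.39 (adjusted p = 0.0519). The C57Bl/6J signals were 10.31, 10.69, 10.80 and 10.78 with Ang II against 10.87, 10.74 and 10.46 in sham for C1qc. For C1qb they were 10.54, 10.72, 10.64 and 10.78 with Ang II against 10.67, 10.51 and 10.75 in sham. Ang II and sham overlapped in both. The integrin chains Itgam, Itgb2 and Itgax, which define myeloid cells by surface staining, were too dim for the detection filter: Itgam and Itgax were detected on no array and Itgb2 on 1.

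The array-by-array values show that array 4 of the C57Bl/6N Ang II group stood apart. It was the lowest of its group for 38 of the 40 genes, all but Ctsd and Spi1. The share of all tested rows that were lowest on array 4 is not given here. In the other rows that rose, array 4 was also lower by the median, as set out below. The median of the 40 genes, after subtracting each gene's average over the 6 sham arrays, was 1.14, 0.81, 1.14 and 0.27 on C57Bl/6N Ang II arrays 1 to 4. It was -0.08, -0.19 and 0.15 on the C57Bl/6N sham arrays. On the C57Bl/6J Ang II arrays it was 0.13, 0.08, 0.17 and 0.15, and on the C57Bl/6J sham arrays 0.08, -0.04 and 0.02. Array 4 was thus lower than arrays 1 to 3 of its group and above every other array.

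**Figure D3:**
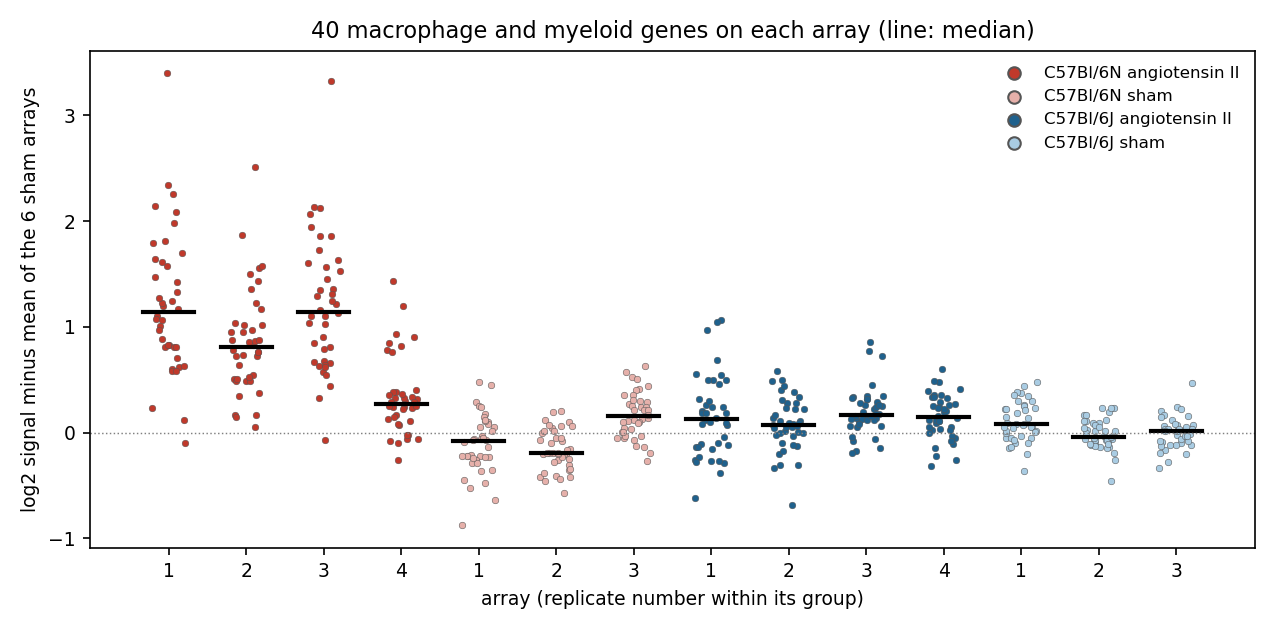
The 40 tested genes as points on each of the 14 arrays (horizontal axis, C57Bl/6N Ang II first, then C57Bl/6N sham, C57Bl/6J Ang II and C57Bl/6J sham), with the log2 signal minus each gene's mean over the 6 sham arrays on the vertical axis and a line at the median. Arrays 1 to 3 of the C57Bl/6N Ang II group are raised almost throughout and array 4 less so, with medians of 1.14, 0.81, 1.14 and 0.27.

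Arrays 1, 2, 3 and 4 of the C57Bl/6N Ang II group lay above all 3 C57Bl/6N sham arrays for 38, 37, 39 and 23 of the 40 genes. Among all tested rows the shares were 28.4%, 26.0%, 28.6% and 24.4%. Most of those rows did not rise, so these shares cannot show whether array 4 lagged in other genes that did. All 4 Ang II arrays lay above all 3 sham arrays for 22 of the 40 genes in C57Bl/6N, against 12.6% of all rows, and for 7 of 40 in C57Bl/6J, against 7.94% of all rows. For the 33 genes that rose, array 4 reached a median of 32.4% of the mean rise of arrays 1 to 3, with quartiles of 21.6% and 43.5%. For the other 856 rows that rose, the median was 52.6%, with quartiles of 36.9% and 73.2%, so array 4 was lower than arrays 1 to 3 there too, though by less. These percentages use the same arrays as the calls and are given as a description.

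Genes outside the list placed array 4 in different ways. Myh7, the fetal myosin heavy chain of stressed cardiomyocytes, stood 2.40, 2.43, 2.14 and 2.82 above the mean of the 6 sham arrays on C57Bl/6N Ang II arrays 1 to 4, so it was highest on array 4. Acta1, the skeletal actin that stressed cardiomyocytes also make, stood at 0.84, 1.0, 1.12 and 1.40, again highest on array 4. Timp1, a secreted inhibitor of matrix metalloproteinases, stood at 5.23, 4.49, 5.39 and 3.40 and was lowest on array 4. These 3 genes were chosen after their values were seen. The 6 tested proliferation genes had a median of 1.98, 1.80, 2.26 and 0.92 on the same arrays, so that array 4 was lowest, as for the macrophage genes. Why array 4 differed was not tested.

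The calls in C57Bl/6N depended in part on single arrays. The sizes of dim genes depended on the background correction. With background taken from all rows (neqc) the C57Bl/6N change was 0.37 for Trem2, 0.29 for Ms4a7, 0.21 for Sla, 0.26 for Clec4n and 0.18 for Vav1. In each of 22 alternative settings, which include leaving out each of the 14 arrays, 17 of the 33 genes were called: Cd52, Cd68, Cd84, Clec4n, Csf1r, Ctsk, Adgre1, Lgals3, Ly86, Lyz1, Lyz2, Ms4a6d, Ms4a7, Ptpn6, Sla, Trem2 and Vav1. The count was 21 without Ang II array 3, 21 without sham array 1, 19 without sham array 2 and 35 without Ang II array 4. Each of the other 16 lost its call in at least 1 setting. For Lcp1, Coro1a and Cd14 this was without sham array 1 or 2, with adjusted p of at most 0.076, 0.0746 and 0.0584. Ctsz lost it without sham array 1. Ncf4 lost it without Ang II array 3 or sham array 2. C1qb was called in 14, Ctss in 8, Cyba and Cd180 in 15, C1qc, Pld4 and Irf8 in 17, and Aif1, Cd53, Laptm5 and Rac2 in 16 of the 22 settings.

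The second question was whether the substrains differed in their response. The response was larger in C57Bl/6N than in C57Bl/6J for 38 of the 40 genes, against 47.4% of all rows. The median difference of the responses was 0.81 over the 40 genes and -0.02 over all rows. For the 40 genes, the median 95% interval of a single gene ran from 0.17 to 1.46. The genes were measured on the same arrays, so the 38 are not independent signs of a difference in response. No gene passed the threshold in limma's test of that difference: 0 of the 40 did, where 0.0106% of all rows, which is 1 row, did so. At an unadjusted p under 0.05 there were 28 of the 40, against 17.5% of all rows. Cd180, which passed the filter only through C57Bl/6N Ang II, is among the 28 and among the 38. Sla came nearest, with a response larger by 1.17 ± 0.19 (adjusted p = 0.0613). Trem2 followed (adjusted p = 0.0682, without a size because its C57Bl/6N sham arrays were not above background). Ms4a7 was next at 1.37 ± 0.26 (adjusted p = 0.0749), and then Cd52 at 1.83 ± 0.46 (adjusted p = 0.129). The detection limits given above for Ms4a7 hold here too.

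This result turned on array 4. Leaving it out, as 1 of the 14 arrays left out in turn, put 24 of the 40 genes past the threshold for the difference, all with the larger response in C57Bl/6N, against 4.39% of all rows (23 of 39 without Cd180). Among them were Trem2 (adjusted p = 0.0004), Ms4a7 (adjusted p = 0.0008), Sla (adjusted p = 0.0015), Lyz2 (adjusted p = 0.0069), Lgals3 (adjusted p = 0.0075) and Cd52 (adjusted p = 0.0081). Array weights put 23 past it, against 6.04% of all rows (22 of 39 without Cd180). They gave array 4 a weight of 0.515, and lower ones to C57Bl/6J Ang II array 1 (0.171) and C57Bl/6N sham array 1 (0.328). That count therefore cannot be laid to array 4 alone. Nothing in the labels sets array 4 apart, so the values with all 14 arrays stand as the result.

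In sham ventricles no member passed the threshold between the substrains. Of the 40, 0 passed the threshold, where 0.0213% of all rows did, and 2 had an unadjusted p under 0.05 in limma, against 7.62% of all rows. These were Csf1r, lower in C57Bl/6N by a change of -0.40 ± 0.15 (adjusted p = 0.547), and Trem2 (adjusted p = 0.635), whose C57Bl/6N sham arrays were not above background. The median over the 40 genes was -0.07, with a median 95% interval of a single gene from -0.51 to 0.41. Precision differed between genes, with a standard error of 0.37 for Cd68 against 0.15 for Csf1r. That interval is therefore no limit for every gene, and a missing call does not show equal levels.

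Under Ang II, 26 of the 40 genes were higher in C57Bl/6N than in C57Bl/6J and 0 were lower, where 5.46% of all rows were higher and 3.78% lower. Without Cd180 the count was 25 of 39. The median difference, Cd180 included, was 0.77, with a range of -0.26, for Ctsd, to 1.98, for Lgals3. Lgals3 was higher by 1.98 ± 0.34, Cd52 by 1.56 ± 0.30 and Sla by 1.28 ± 0.13 (adjusted p = 0.0052, 0.00838 and 9.29e-05). Cx3cr1 and Spi1, which had missed the threshold against sham, were higher here by 0.83 and 0.65 (adjusted p = 0.0284 and 0.0361). None of the 3 C1q chains passed. The count was 10 without Ang II array 1 or 3 of C57Bl/6N, 17 without Ang II array 2 of C57Bl/6J, 35 without Ang II array 4 of C57Bl/6N, and 10 when only the Ang II arrays were fitted.

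Genes of other lists show what moved beside the members. For the counts against sham that follow, 9.45% of all tested rows rose and 7.92% fell in C57Bl/6N. In C57Bl/6J 1.02% rose and 0.383% fell. Of 18 other tested genes of myeloid signalling and transcription, 10 rose in C57Bl/6N and 0 fell, with a median of 0.61. They included the adaptors Tyrobp (1.34, adjusted p = 0.00134) and Fcer1g (1.36, adjusted p = 0.00323), which carry the signals of many myeloid receptors, and the endosomal receptor Tlr7 (0.95, adjusted p = 0.000475). In C57Bl/6J 1 of the 18 rose, Tlr4, by 0.69 (adjusted p = 0.0291). Of 5 tested monocyte markers 3 rose in C57Bl/6N, with a median of 1.0: Plac8, S100a4 and Chil3 (row Chi3l3). No array outside the C57Bl/6N Ang II group was above background for Chil3, so it may have passed the filter only through that group, as Cd180 did. Without it, the monocyte markers that rose were Plac8 and S100a4. None of the 5 passed in C57Bl/6J.

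Of 12 tested resident cardiac macrophage markers, 4 rose in C57Bl/6N, namely Mrc1, Siglec1, Stab1 and Pf4, and the lectin gene Mgl2 fell by 0.65 (adjusted p = 0.0441), where 9.45% of all rows rose and 7.92% fell. The median was 0.10. Under Ang II 4 of the 12 were lower in C57Bl/6N than in C57Bl/6J, where 3.78% of all rows were lower, and 0 were higher. They were the hyaluronan receptor Lyve1 (-0.72), the folate receptor Folr2 (-0.67), the complement receptor Vsig4 (-0.62) and the lectin Fcna (-0.63), with adjusted p of 0.0439, 0.012, 0.0462 and 0.0146. None of the 12 passed the threshold in C57Bl/6J. Between the substrains under Ang II, where 5.46% of all rows were higher in C57Bl/6N, 3 of the 5 monocyte markers, 5 of the 18 other myeloid genes, 3 of the 17 general lysosome genes and 5 of the 6 proliferation genes were higher and none of them was lower. A call of Chil3 has the limit given above here too.

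Of 7 tested macrophage growth factors and their receptors, none passed limma's threshold against sham in either substrain. Under Ang II 2 of the 7 were higher in C57Bl/6N than in C57Bl/6J, Csf2ra by 0.70 (adjusted p = 0.0233) and Csf2rb, which was above background on no array. Csf1, the ligand of Csf1r, had a change of -0.03 in C57Bl/6N and 0.70 in C57Bl/6J (adjusted p = 0.918 and 0.0503). The monocyte chemoattractant Ccl2 had 1.03 and 1.49 (adjusted p = 0.156 and 0.153). All 6 tested proliferation genes rose in C57Bl/6N, with a median of 1.80, and 1 of them, Prc1, rose in C57Bl/6J, by 1.44 (median of the 6 genes 0.60).

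Markers of other blood cells gave few or no calls. Of 5 tested neutrophil markers none passed the threshold in either substrain, and 6 of the 11 rows, among them Cxcr2, Mpo, Camp, Ngp and Ltf, were above background on no array. The summed deposited signal of the neutrophil rows ran from 1211 to 3158 in C57Bl/6N Ang II, 1699 to 2378 in C57Bl/6N sham, 979 to 1935 in C57Bl/6J Ang II and 1434 to 1863 in C57Bl/6J sham ventricles. For T cells 7 of 9 rows, with Cd3e, Cd3d and Cd3g among them, were above background on no array. The summed T cell signal ran from 984 to 1477 in C57Bl/6N Ang II, 885 to 1122 in C57Bl/6N sham, 743 to 1090 in C57Bl/6J Ang II and 888 to 1017 in C57Bl/6J sham ventricles. None of the 2 tested T cell, 2 NK cell and 2 mast cell markers passed the threshold in either substrain. Dendritic cell marker Zbtb46, the only 1 tested of 8 rows, fell by 0.55 in C57Bl/6N (adjusted p = 0.0108). Of 9 cardiomyocyte markers 0 rose in C57Bl/6N and 1, Ckm, fell there, by 0.59 (adjusted p = 0.0151), where 7.92% of all rows fell. A single call in so short a list is near that share. The part of any of these cell types in the members' values was not tested.

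**Figure D4:**
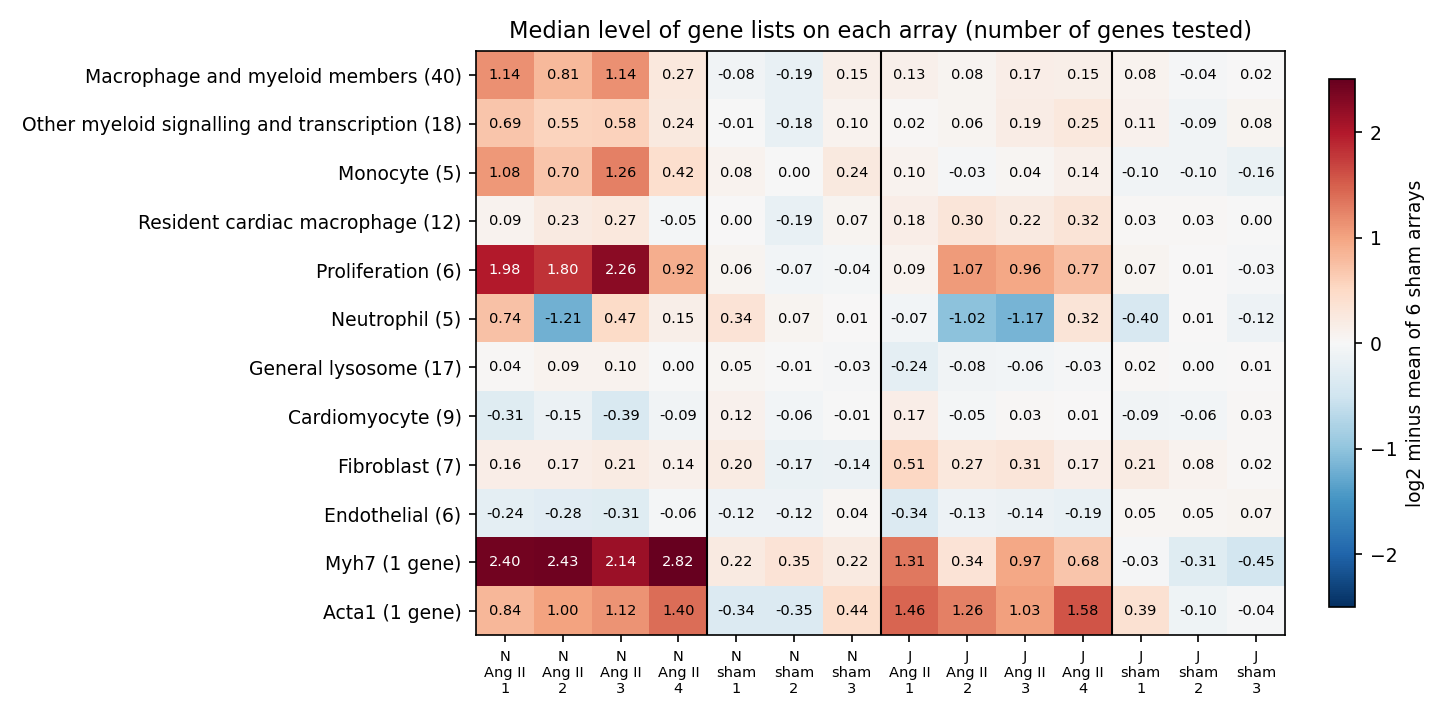
Median log2 signal, after subtracting each gene's average over the 6 sham arrays, of the 40 members, of other gene lists and of 2 single genes on each array, with C57Bl/6N Ang II columns first. The members, the monocyte list and the proliferation list are lower on C57Bl/6N Ang II array 4 than on arrays 1 to 3, while Myh7 and Acta1 are higher on it than on the other 3 arrays of its group.

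Outside these lists, the row whose profile over the 14 arrays was most like the median of the members was Btk, a kinase of B cells and myeloid cells (Pearson r = 0.986). The next were an unnamed locus row (r = 0.980), Ppia (r = 0.978), Aurka (r = 0.976) and Lig1 (r = 0.976). These are descriptions over 14 arrays that share their groups.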

How the data were processed

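Total RNA of left ventricles was labelled with biotin and hybridised to Illumina arrays, per the labels' protocols. The authors deposited, per the file headers, an intensity (signal) and a detection p-value for each row and array without normalisation, and a second table of normalised intensity values for which no method is given in the sources used here. Rows carry gene names, of which 50 of the 54 listed members matched a current RefSeq symbol (GRCm38.p6) and 4 an older name.

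The deposited signals were corrected with normexp in limma 3.58.1 (R 4.3.3). Each array's background mean and SD were recovered from the deposited detection p-values, which lie on a grid of 798 steps (14215 of 18138 rows on it, within 0.2% of a step). An offset of 16, quantile normalisation and log2 followed. Rows detected at p under 0.05 on 3 or more arrays were kept: 9408 (51.9%). One model with 4 group means over 14 arrays was fitted with lmFit and eBayes (10 residual and 4.8 prior degrees of freedom), and p-values were adjusted by Benjamini-Hochberg over all rows kept. The steps were tested on simulated data. A row was called above background on an array when its signal reached the lowest detected signal among rows on the grid. The number of arrays limits the precision. The members, gene lists and tests were chosen with earlier results of these data known. Signals were printed array by array for the 2 members of each role with the largest change in C57Bl/6N, members called in C57Bl/6J and members lower in C57Bl/6N. Promoter windows are from RefSeq.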

Additional observations from a re-analysis of the deposited data

Results flagged for a closer look

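Dixon's gap ratio was computed for the 2 Ang II groups, for each of the 40 tested genes and for their median (82 tests), and 3 exceeded the 95% critical value, where chance flags about 1 in 20 groups. C1qc on C57Bl/6N Ang II array 4 lay below the other arrays of its group with a ratio of 0.985, as Pld4 did with 0.931. Ctss on C57Bl/6J Ang II array 1 lay above the others of its group with a ratio of 0.911. The median of the 40 genes was flagged in neither group, so array 4 of C57Bl/6N Ang II was no outlier there by this rule.

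Of the members that did not pass the detection filter, the row named LYZS (Lyz2) was above background by signal on all 14 arrays though detected on 2. Its deposited signals were 722, 568, 1242 and 301 in C57Bl/6N Ang II ventricles against 308, 248 and 335 in C57Bl/6N sham ventricles, and 592, 443, 271 and 262 with Ang II against 464, 322 and 271 in sham in C57Bl/6J. Gpnmb, a membrane glycoprotein of lipid-laden macrophages, was above background by signal on 3 arrays, all of them C57Bl/6N Ang II. Its deposited signals were 164, 120, 175 and 79.1 in C57Bl/6N Ang II ventricles against 78.5, 74.9 and 70.2 in C57Bl/6N sham ventricles. In C57Bl/6J they lay between 69.8 and 76.2 with Ang II and between 70.2 and 75.4 in sham.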

How the results depend on the processing

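No called member changed sign in any setting. The median of C57Bl/6N over C57Bl/6J in sham, -0.07 with no member called, ranged from -0.15 to 0.01 over the arrays left out, and Ctsd in C57Bl/6N, which was not called, moved across 0. The only member called lower in any setting was Ctsd, between the substrains under Ang II with array weights. Leaving out 1 array at a time, the number of the 40 genes that rose in C57Bl/6N ranged from 19 to 35 and their median change from 0.75 to 1.11. That median was 0.64 with the authors' value table and 0.32 with background from all rows (neqc), where 34 and 27 genes were called. The 1 call in C57Bl/6J became 0 with median scaling and ranged from 0 to 1 over the arrays left out. The median difference of the responses was 0.25 with neqc. The number of genes called for that difference was 23 with array weights and ranged from 0 to 24 over the arrays left out. Under Ang II the median of C57Bl/6N over C57Bl/6J was 0.23 with neqc, and the 26 genes called became 10 in a fit on the Ang II arrays alone and ranged from 10 to 35 over the arrays left out. The cause of these shifts was not tested. No paired analysis was possible because the labels give no replicate numbers. Rows that did not pass the detection filter, 12 of the 52 members with a row, limit what can be said of Ptprc, Itgam, Cybb and Ccr2.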

Other observations

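Without the detection filter, which leaves 18138 rows and 52 members, 2 of the 12 members that did not pass it were called in C57Bl/6N: Gpnmb (limma adjusted p = 0.0214) and Ptprc (adjusted p = 0.0488). Gpnmb was above background on no C57Bl/6N sham array and Ptprc on no array, so their changes have no size. Under Ang II, Gpnmb (adjusted p = 0.0394) and Itgb2 (adjusted p = 0.0278) were called higher in C57Bl/6N than in C57Bl/6J, and no C57Bl/6J Ang II array was above background for either. The row LYZS had a change of 1.03 (adjusted p = 0.0967).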
